A study of Mus musculus with 6 samples.

Results

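The genes described here are 10 mouse genes of the Wnt pathway and of the intestinal stem cell: Axin2, Ctnnb1, Apc, Lef1, Tcf7, Tcf7l2, Nkd1, Lgr5, Ascl2 and Sfrp1. They were found on the array by gene symbol, with synonyms resolved through Entrez identifiers. Of the 10 genes, 9 had at least 1 probe, 28 probes in all, among 19057 genes on the array. No probe carried the symbol or identifier of Tcf7 in the annotation used, and its expression is not analysed here.

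The RNA came from MC38, a colon carcinoma cell line from C57Bl/6 mice, and was measured on 6 single-colour Illumina bead arrays, 2 for each of 3 groups. The Stimulated cells were starved of serum for 16 h and then given the protein S100A8/A9 at 10 µg/mL for 6 h. S100A8/A9 is a calcium-binding heterodimer that myeloid cells release in inflammation. The Unstimulated cells were starved of serum for 16 h and received no S100A8/A9, and the labels do not settle whether they were kept for the further 6 h. Both starved groups are labelled as kept in reduced serum, and the Control cells grew in normal medium. All groups are thus 1 cell line in culture, with no stroma or immune cells of a host. The labels do not say whether the 2 samples of a group were separate cultures, so the p-values rest on variation that could be technical alone.

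In canonical Wnt signalling, a destruction complex built on Apc and Axin proteins marks beta-catenin, the product of Ctnnb1, for degradation. Wnt ligands bound to Frizzled and LRP receptors stop this, and beta-catenin then enters the nucleus and joins the TCF/LEF factors Tcf7, Tcf7l1, Tcf7l2 and Lef1 at target genes. Axin2 and Nkd1 are targets that feed back on the pathway, Lgr5 and Ascl2 mark the stem cells at the base of the intestinal crypt, and Sfrp1 is a secreted protein that binds Wnt ligands. Loss of APC is a common early event in human colorectal tumours. RNA levels do not report the stability of the beta-catenin protein.

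Most probes of these genes were at background. A probe was taken as detected on an array where its deposited detection p-value, which compares it with that array's negative control beads, was below 0.01. The lowest signal of a detected probe was 109.3 and 115.6 intensity units on the Stimulated arrays, 117 and 113.6 on the Unstimulated arrays and 121.7 and 121.6 on the Control arrays. By this measure 6 of the 28 probes (21.4%) were detected on all 6 arrays, 2 were detected on 1 array and 20 on no array. Of all probes on the array, 36.1% were detected on at least 2 arrays. The 6 detected probes belonged to Axin2, Ctnnb1, Apc and Tcf7l2, so 4 of the 9 genes with a probe (44.4%) could be tested, against 46.7% of all genes. Lef1, Nkd1, Lgr5, Ascl2 and Sfrp1 could not.

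**Figure D1:**
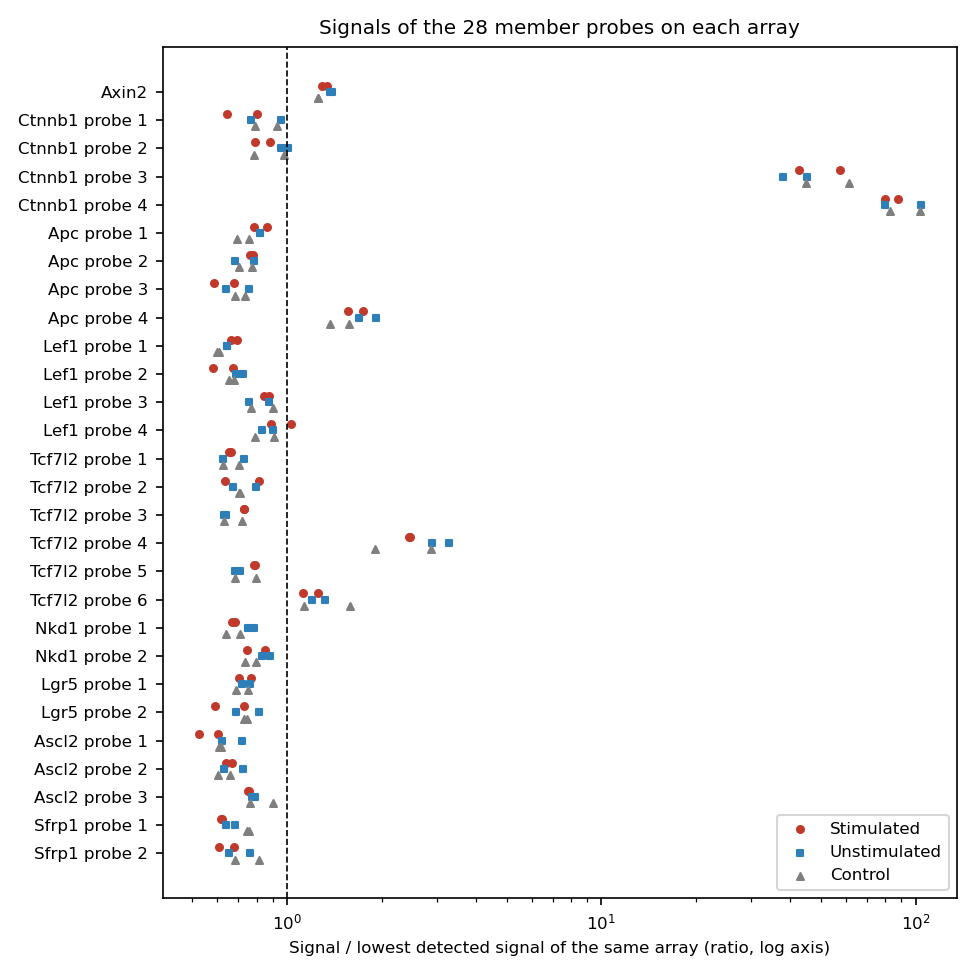
Signal of each of the 28 probes on each array, divided by the lowest detected signal of the same array (log axis); red circles are Stimulated, blue squares Unstimulated and grey triangles Control samples. The dashed line is the detection limit: 6 probes lie right of it on every array, and the other 22 lie between 0.523 and 1.03 times the limit.

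Axin2, a scaffold of the destruction complex whose transcription is a widely used readout of canonical Wnt signalling, was detected on every array but lay close to background. Its 1 probe (ILMN_2896314) had raw signals of 146.6 and 149.6 in Stimulated cells, 162.3 and 155.7 in Unstimulated cells and 152.4 and 152.2 in Control cells. These are 1.25 to 1.39 times the detection limit of their arrays. The Stimulated signals were below and the Unstimulated signals above the Control signals, with no overlap between groups. After background correction and quantile normalization the order was lost: normalized log2 signals were 6.48 and 6.38 in Stimulated, 6.39 and 6.46 in Unstimulated and 6.46 and 6.19 in Control cells. The log2 fold change of Stimulated over Unstimulated cells was 0.01 ± 0.15 (SE, n = 2 each; limma adjusted p = 0.994). Its 95% interval was -0.34 to 0.36, that is, a fold of 0.792 to 1.28 on the background-corrected scale. Against Control cells the log2 fold change was 0.10 for Unstimulated cells (adjusted p = 0.662, 95% interval -0.25 to 0.45) and 0.11 for Stimulated cells (adjusted p = 0.632, 95% interval -0.24 to 0.46).

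The Axin2 gene lies on chromosome 11 (GRCm38.p6, 108917828 to 108950783, plus strand). Promoter windows of Axin2, the pathway readout, and of Tcf7l2, a TCF factor, are shown for the TCF/LEF words they hold or lack. They are RefSeq's on GRCm38.p6 and run from 250 bases before to 50 after an annotated start. Capitals mark a core word of the TCF/LEF motif on either strand. The words searched were CTTTGAA and CTTTGAT, together with CTTTGTA and then CTTTGTT, and each window shown holds at most 1 match. The Axin2 window, chr11:108920099-108920398 on the plus strand, holds none of them and 31 CpG dinucleotides. It lies at a start inside the gene bounds given above, so the sequence around the gene's first base was not searched.
Axin2: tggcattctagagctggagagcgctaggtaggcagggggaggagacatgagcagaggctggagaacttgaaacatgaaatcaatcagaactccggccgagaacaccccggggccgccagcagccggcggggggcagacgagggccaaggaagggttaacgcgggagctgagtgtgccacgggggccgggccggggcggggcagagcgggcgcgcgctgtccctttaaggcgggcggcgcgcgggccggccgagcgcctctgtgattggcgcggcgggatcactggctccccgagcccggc
Tcf7l2 has annotated starts on chromosome 19 at 2 places. The downstream window, chr19:55895071-55895370 on the plus strand, holds CTTTGTT 14 bases before the start and 7 CpG dinucleotides, and the upstream window, chr19:55741560-55741859, holds 34 CpG dinucleotides and none of the words.
Tcf7l2 downstream start: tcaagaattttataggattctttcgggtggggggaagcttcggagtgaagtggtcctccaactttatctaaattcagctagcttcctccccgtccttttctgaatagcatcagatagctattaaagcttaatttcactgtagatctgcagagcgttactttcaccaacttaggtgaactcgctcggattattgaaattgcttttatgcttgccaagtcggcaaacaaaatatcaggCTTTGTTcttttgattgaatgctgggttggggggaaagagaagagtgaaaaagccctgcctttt
Windows of Apc were left out of the search, and none was listed for Lgr5 and Sfrp1. No count here covers these genes. The search covered 7 of the genes, Tcf7 among them, with 13 windows. Of these, 2 windows (15.4%) held a word, against 16.9% of the 32851 promoters in the table. Besides the Tcf7l2 downstream window, the other was at a downstream start of Lef1 (chr3:131156044-131156343). With genes not covered, the share of 15.4% is not read as a difference from the background. CpG dinucleotides numbered 5 to 51 in the 13 windows, and 10 windows had more than the median promoter, which has 7. A match describes the letters and is no evidence of binding.

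Ctnnb1, which encodes beta-catenin, was detected far above background by 2 of its 4 probes. Probe 4 (ILMN_2994460) had signals of 9619.8 and 9225.5 in Stimulated, 9387.4 and 11773.8 in Unstimulated and 10073.4 and 12557 in Control cells. Each group's range overlapped that of Unstimulated cells, but both Stimulated signals were below both Control signals. After normalization Stimulated and Control cells overlapped, at log2 signals of 13.48 and 13.22 against 13.21 and 13.38. The log2 fold change was -0.01 ± 0.19 for Stimulated over Unstimulated cells (adjusted p = 0.998, 95% interval -0.43 to 0.41) and 0.05 for Stimulated over Control cells (adjusted p = 0.862, 95% interval -0.37 to 0.47). Probe 3 (ILMN_2696575) had signals of 6264.7 and 4926.9 in Stimulated, 4443.4 and 5141.9 in Unstimulated and 5445.8 and 7495 in Control cells. No difference passed the threshold with either probe, but their estimates differed. Probe 3 gave 0.39 ± 0.23 for Stimulated over Unstimulated cells (adjusted p = 0.738) and -0.31 for Unstimulated over Control cells (adjusted p = 0.354), where probe 4 gave 0.06 (adjusted p = 0.828). The other 2 Ctnnb1 probes stayed between 74.6 and 119.3 units, and 1 of them (ILMN_2616556) was detected on a single array, Unstimulated replicate 2, at 115.1.

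Apc, the tumour suppressor that holds beta-catenin in the destruction complex, was detected by 1 of its 4 probes (ILMN_2655204). Signals were 190.9 and 179.8 in Stimulated, 224.9 and 192.1 in Unstimulated and 166.4 and 191.2 in Control cells. Both Unstimulated signals were above both Control signals, while the Stimulated and Control signals overlapped. Normalized log2 signals were 7.15 and 6.82 in Stimulated, 7.14 and 6.95 in Unstimulated and 6.68 and 6.75 in Control cells, so that both starved groups lay above the Control cells without overlap. The differences were 0.33 for Unstimulated over Control cells (1.26-fold; adjusted p = 0.156, 95% interval -0.04 to 0.70) and 0.27 for Stimulated over Control cells (adjusted p = 0.241), and neither passed the threshold. Stimulated and Unstimulated cells differed by -0.06 ± 0.16 (adjusted p = 0.958). The remaining 3 probes of Apc read 67.9 to 100.1 units.

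Tcf7l2, a nuclear partner of beta-catenin, was detected by 2 of its 6 probes. Probe 4 (ILMN_2641647) had signals of 267.3 and 284.9 in Stimulated, 382.8 and 329.8 in Unstimulated and 231.9 and 349.8 in Control cells. Both Stimulated signals were below both Unstimulated signals, while the Control signals spanned nearly the whole range. The log2 fold change was -0.29 ± 0.18 for Stimulated over Unstimulated cells (adjusted p = 0.73, 95% interval -0.71 to 0.13) and 0.40 for Unstimulated over Control cells (1.32-fold; adjusted p = 0.127, 95% interval -0.01 to 0.82). Stimulated and Control cells differed by 0.11 (adjusted p = 0.68). Normalized log2 signals of the probe were 7.84 and 7.78 in Stimulated, 8.17 and 8.03 in Unstimulated and 7.45 and 7.95 in Control cells, so the Unstimulated samples lay above the other 4. One control array decided the comparison of Unstimulated with Control cells: without Control replicate 2 the difference was 0.65 and passed the threshold (adjusted p = 0.0406). Probe 6 (ILMN_3006739) had signals of 122.6 and 145 in Stimulated, 140.6 and 150.3 in Unstimulated and 137 and 192.9 in Control cells, and its difference between Unstimulated and Control cells had the other sign, -0.28 (adjusted p = 0.434). The 4 undetected Tcf7l2 probes read 69.2 to 96.9 units.

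**Figure D2:**
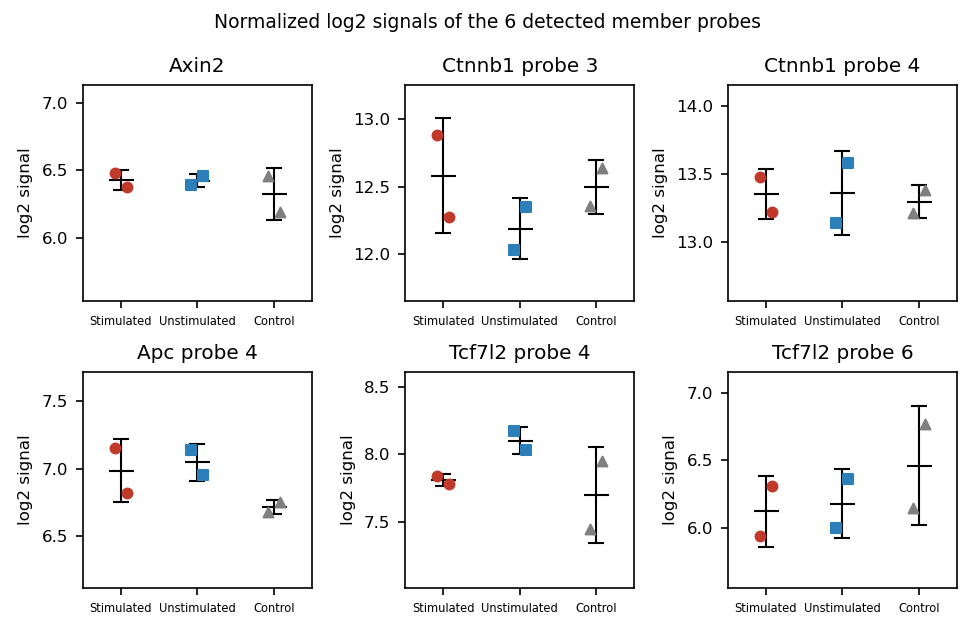
Normalized log2 signal (y axis) of the 6 detected probes by group; points are samples, and bars give the mean and SD of 2 samples. Apc lies higher in both starved groups than in Control cells, at 6.82 to 7.15 against 6.68 and 6.75, while the groups of Axin2 and of Ctnnb1 probe 4 overlap. Neither Apc difference passed the threshold (limma adjusted p = 0.156 for Unstimulated and 0.241 for Stimulated over Control cells).

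In limma's fit, 0 of the 4 tested genes passed the threshold of 0.05 on the adjusted p in any of the 3 comparisons, and 0 had an unadjusted p below 0.05. For Stimulated against Unstimulated cells the count of 0 of 4 stands against 0.0786% of all 8909 tested genes, 7 genes. For Unstimulated against Control cells it stands against 30.8% of all genes and for Stimulated against Control cells against 29.1%. An unadjusted p below 0.05 was found for 730, 3778 and 3693 of the 8909 genes in these comparisons. The median log2 fold change of the 4 genes was -0.03, 0.21 and 0.11 in these comparisons, against -0.01, -0.00 and -0.01 for all tested genes. With 4 genes, these counts are not read as a difference from the background. In simulated data of this design, 13.4% of 67 genes changed 1.5-fold and 65.7% of 67 genes changed 2-fold were called between Stimulated and Unstimulated cells. Changes of the sizes the intervals allow would thus often be missed. The simulation also held 66 genes changed 4-fold, and the adjustment depends on how many genes change. With 7 genes called in the data, the shares may not carry over.

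**Figure D3:**
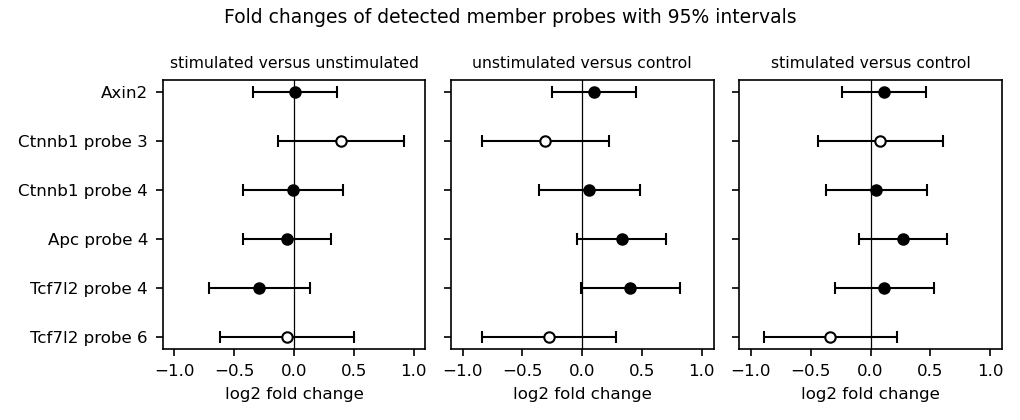
Log2 fold change (x axis) with its 95% interval for the 6 detected probes in the 3 comparisons; filled points are each gene's main probe, open points a further probe of the gene. Every interval includes 0, with Tcf7l2 probe 4 in Unstimulated over Control cells nearest to leaving it, at -0.01 to 0.82.

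The 5 remaining genes had no level that could be ordered between groups. Lgr5, a receptor for R-spondins that marks crypt stem cells, read 68.1 to 95 units over its 2 probes and 6 arrays, with a lowest detection p-value of 0.24573. Ascl2, a transcription factor of crypt stem cells, read 60.5 to 110 units over 3 probes, and its lowest p-value was 0.03419, on Control replicate 2. Nkd1, which binds Dishevelled, read 74.9 to 100.2 units over 2 probes, with a lowest p-value of 0.06197. These are signals not well above background, which does not show that the genes are silent.

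Lef1 read 67.1 to 119.2 units over 4 probes. One probe (ILMN_2648475) was detected on a single array, Stimulated replicate 2 (119.2 units, at a detection p-value of 0.00641), and read 97.3 on the other Stimulated array, 105.4 and 94.6 on the Unstimulated arrays and 96.5 and 110.6 on the Control arrays. The 2 Stimulated samples therefore do not share the signal. At Sfrp1, probe 1 (ILMN_1231689) read 67.5 and 71.7 in Stimulated, 74.7 and 77.4 in Unstimulated and 92.1 and 90.9 in Control cells, with both Control arrays above the other 4. Its lowest detection p-value was 0.2297, so these values lie within the negative controls, and the other Sfrp1 probe read 66.6 and 78.5, 89.4 and 74.2, and 98.9 and 83.3 in the same groups. Over the 22 probes below the filter, 9 of 132 values (6.82%) had a detection p-value below 0.05 and 2 (1.52%) one below 0.01. A fit without the filter called 0 of these 5 genes in any comparison. Of all 19057 genes it called 7 for Stimulated over Unstimulated, 1991 for Unstimulated over Control and 1934 for Stimulated over Control cells. With 5 genes, the count of 0 is not read as a difference from these.

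A wider set of Wnt and stem cell genes was read beside them, in lists chosen by role: ligands and their secretion, receptors, the destruction complex with Dishevelled proteins, nuclear factors, inhibitors, targets and stem cell markers. Of 113 such genes, 111 were on the array and 49 were tested. Between Stimulated and Unstimulated cells 0 of the 49 were called, against 7 of all 8909 tested genes. An unadjusted p below 0.05 was found for 5 of the 49, against 730 of the 8909. Between Unstimulated and Control cells 12 rose and 1 fell (26.5% called, median 0.12), against 30.8% of all tested genes. By direction, 24.5% of the 49 rose and 2.04% fell, against 17.1% and 13.7% of all tested genes. Between Stimulated and Control cells 9 rose and 2 fell (22.4% called, median 0.17), against 29.1% of all genes. Here 18.4% rose and 4.08% fell, against 15.9% and 13.2% of all genes. These shares describe the lists, and their difference from the background was not tested.

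In Unstimulated over Control cells the ligand list (5 of 25 genes tested) had 2 risers: Wls, which carries Wnt proteins to the cell surface (0.97 ± 0.21, adjusted p = 0.00954), and Porcn, the acyltransferase that lipid-modifies them (0.66 ± 0.15, adjusted p = 0.0131). The Porcn call was lost without Unstimulated replicate 1, Unstimulated replicate 2 or Control replicate 2 (adjusted p = 0.0645, 0.0622 and 0.0793). Wls had signals of 1694 and 1682.2 in Stimulated, 2117.7 and 2725.3 in Unstimulated and 1020.9 and 1618 in Control cells. The Wls call was lost without Unstimulated replicate 2 (adjusted p = 0.0759) or Control replicate 1 (adjusted p = 0.0652). Among 8 tested receptors, Fzd2, a Frizzled receptor, rose (0.87 ± 0.14, adjusted p = 0.00242). Its signals were 235.4 and 263.9 in Stimulated, 368.7 and 348.6 in Unstimulated and 216.6 and 235.8 in Control cells. The change of Fzd2 in Stimulated over Unstimulated cells, -0.52 ± 0.14, was not called (adjusted p = 0.318).

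Of 11 tested genes of the destruction complex and Dishevelled list, 1 rose: Gsk3b, the kinase that phosphorylates beta-catenin (0.67 ± 0.15, adjusted p = 0.0117). A second Gsk3b probe gave -0.22, so its direction rests on the probe, and the call was lost without Unstimulated replicate 2 (adjusted p = 0.0842) or Control replicate 2 (adjusted p = 0.0646). Of 10 nuclear factors 3 rose. Tle2, a Groucho-type corepressor of TCF factors, had the largest change of these 49 genes (1.46 ± 0.19, adjusted p = 0.00112), with signals of 248.7 and 215.6 in Stimulated, 317.6 and 265.1 in Unstimulated and 136.6 and 165.9 in Control cells. A second Tle2 probe gave a smaller rise, 0.86 ± 0.24 (adjusted p = 0.0313 in a limma fit of every detected probe on its own). Tcf7l1, mostly a repressor among the TCF factors, rose by 0.59 (adjusted p = 0.0144), a call lost without Unstimulated replicate 1, Unstimulated replicate 2 or Control replicate 1 (adjusted p = 0.0598, 0.0717 and 0.0812). Bcl9l, a coactivator of beta-catenin, rose by 0.58 (adjusted p = 0.0479), with another Bcl9l probe at -0.11. Bcl9l was called under 8 of 16 alternatives. It lost its call without Unstimulated replicate 1 or 2 (adjusted p = 0.142 and 0.163), and its value was 0.32 without Control replicate 1 (adjusted p = 0.272).

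Of the 3 tested inhibitors, Igfbp4, a secreted binding protein that can block Wnt receptors, rose (0.54 ± 0.14, adjusted p = 0.0209), a call lost without Unstimulated replicate 1, Unstimulated replicate 2 or Control replicate 2 (adjusted p = 0.0891, 0.0761 and 0.108). Sox9, a transcription factor of crypt cells and the 1 riser among 6 tested targets, rose by 0.72 ± 0.16 (adjusted p = 0.0118), with signals of 5910.8 and 8046 in Stimulated, 8959.4 and 7113.3 in Unstimulated and 5371.2 and 5212.1 in Control cells. The Sox9 call was lost without Unstimulated replicate 1 (adjusted p = 0.0794) or Control replicate 2 (adjusted p = 0.0695). Of 6 tested stem cell markers, 3 rose and 1 fell. Rgmb, a co-receptor for bone morphogenetic proteins, rose by 0.86 (adjusted p = 0.0285). Its Control signals, 137.6 and 126.1, lay near the detection limits of 121.7 and 121.6. The call was lost without Unstimulated replicate 1, Unstimulated replicate 2 or Control replicate 2, where the values were 0.91, 0.80 and 0.60. A second Rgmb probe, not well above background in Control cells, gave 0.34 (adjusted p = 0.244 in the limma fit of every detected probe on its own). Lrig1, which restrains ErbB receptors, rose by 0.70 (adjusted p = 0.0142), and its call was lost without Unstimulated replicate 2 (adjusted p = 0.0879) or Control replicate 2 (adjusted p = 0.0713). The remaining riser was Hopx at 0.47 (adjusted p = 0.0342), named after its values were seen because the count is small. The Hopx call was lost whichever array of the 2 groups was left out (adjusted p = 0.0842 and 0.151 without an Unstimulated array, 0.137 and 0.0804 without a Control array). Cdca7, which takes part in DNA methylation upkeep and is active in dividing cells, fell by 0.98 on the log2 scale (adjusted p = 0.00308), with signals of 6016.8 and 4792.8 in Unstimulated against 10744.3 and 12681.1 in Control cells.

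**Figure D4:**
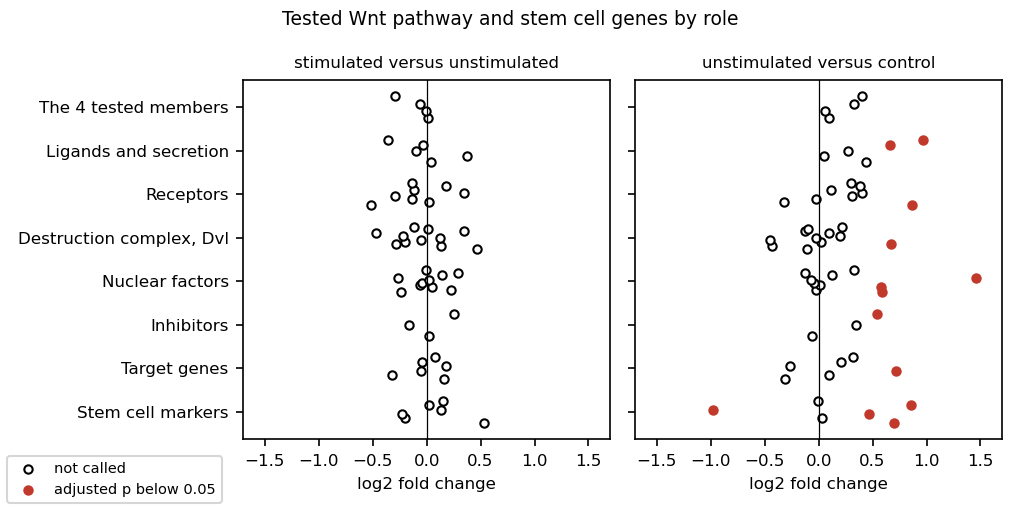
Log2 fold change (x axis) of each tested gene by role, for Stimulated over Unstimulated cells (left) and Unstimulated over Control cells (right); filled points have an adjusted p below 0.05. On the left 0 of 49 genes of the wider set and 0 of 4 listed above are filled, and on the right 12 rose and 1 fell among the 49.

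In Stimulated over Control cells the risers among these lists included Lrig1 (1.24 ± 0.17, adjusted p = 0.00121), Tle2 (1.19 ± 0.19, adjusted p = 0.0026), Igfbp4 (0.80 ± 0.14, adjusted p = 0.00416) and Lrp5, a Wnt co-receptor (0.76 ± 0.16, adjusted p = 0.00754). Lrp5 read 228.1 and 227.3 units in Stimulated, 209.5 and 211.6 in Unstimulated and 172 and 177.2 in Control cells. The others were Sox9 (0.66, adjusted p = 0.0169), Porcn (0.63, adjusted p = 0.0164), Rgmb (0.88, adjusted p = 0.0267), Bcl9l (0.63, adjusted p = 0.0373) and Ryk, another Wnt receptor (0.55, adjusted p = 0.0278). Wls was not called with its brightest probe (0.61, adjusted p = 0.0602). Further Wls probes fitted on their own passed at 0.97 and 0.74 (limma adjusted p = 0.00386 and 0.0102), and those at 0.25 and 0.24 did not. Cdca7 (-0.85, adjusted p = 0.00584) and Csnk1e, a casein kinase of the pathway (-0.50, adjusted p = 0.0466), fell. Second probes of these genes, where detected, had the same sign but did not pass when each was fitted on its own. They gave 0.37 for Tle2 (limma adjusted p = 0.278), 0.43 for Igfbp4 (0.0784), 0.48 for Sox9 (0.0564) and 0.62 for Rgmb (0.0508). For Bcl9l the value was 0.24 (0.49), for Ryk 0.37 (0.112) and for Csnk1e -0.27 (0.241). Leaving out single arrays ended the calls of Sox9 and Rgmb (without Stimulated replicate 2 for Sox9, Stimulated replicate 1 for Rgmb, or Control replicate 2 for both), Porcn (without Stimulated replicate 1 or Control replicate 2) and Ryk (whichever array of the 2 groups was left out). Bcl9l kept its call only when Control replicate 2 was the array left out, and its value was 0.37 without Control replicate 1 (adjusted p = 0.212). Csnk1e kept its call only when Stimulated replicate 2 was the array left out, and its value was -0.33 without Stimulated replicate 1 (adjusted p = 0.232). Rgmb was 0.54 without Stimulated replicate 1 (adjusted p = 0.134). This comparison shares its Control samples with the previous one, so the lists are given side by side and not as separate evidence. Lrig1 read 4230.3 and 3849.7 units in Stimulated, 3108.5 and 3193.7 in Unstimulated and 1944.6 and 2107.6 in Control cells, an order without overlap, although its change between Stimulated and Unstimulated cells (0.53) was not called.

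Among the usual targets of the pathway, Myc, Ccnd1 and Cd44 did not give a call with their brightest probe, unlike Sox9 above. Myc differed by 0.16, -0.31 and -0.15 (adjusted p = 0.883, 0.243 and 0.582) and Ccnd1 by -0.32, 0.10 and -0.23 (adjusted p = 0.609, 0.639 and 0.262) for Stimulated over Unstimulated, Unstimulated over Control and Stimulated over Control cells. Cd44, an adhesion receptor, differed by 0.18, -0.27 and -0.08 (adjusted p = 0.791, 0.181 and 0.686), but further Cd44 probes passed the threshold in the fit over single probes. In Unstimulated over Control cells one gave -0.82 (adjusted p = 0.00915), another was lower and not well above background in Unstimulated cells (adjusted p = 0.014), and the mean of the detected probes gave -0.57 (adjusted p = 0.0105). The first of them also passed in Stimulated over Control cells (-0.51, adjusted p = 0.0491). Lgr4, a homologue of Lgr5, read 71.7 to 101.4 units, Znrf3 81.5 to 103 and Rnf43 64.1 to 101.7, and none of the 3 was detected on any array. Znrf3 and Rnf43 are ubiquitin ligases that remove Frizzled receptors.

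The label of the cells was set against marker genes. Of 17 intestinal and epithelial markers, 12 were detected on no array, among them Cdx2, Vil1, Epcam, Krt8 and Krt18, 4 on 1 array, and 1, Lyz1, on at least 2 arrays. Lyz1 has a near-identical neighbour, Lyz2, so its identity is uncertain, and it read 169.2 and 168.3 units in Unstimulated cells, against 91.9 and 94.6 in Control cells, where it was not well above background (adjusted p = 8.1e-05). Of 10 fibroblast markers 7 were tested, with 5 that rose and 1 that fell in Unstimulated over Control cells, against 17.1% and 13.7% of all tested genes. Dcn rose by 1.88, Pdgfrb by 1.75, Col3a1 by 1.59 and Pdgfra by 1.54. The remaining riser, Col1a1 (0.80, adjusted p = 0.00517), read 119.4 and 114.3 units in Unstimulated cells and was not well above background in Control cells. Col1a2 fell by 0.95 (adjusted p = 0.0035), and Vim had 0.43 (adjusted p = 0.243). Col1a2 was also dim, at 125.1 and 112.1 units in Unstimulated cells, detected on 1 of the 2 arrays, and 165.2 and 161.5 in Control cells. Lum and Thy1 were detected on no array and Acta2 on 1. The summed signal of the 7 was 24807 and 24775 units in Stimulated, 25110 and 29457 in Unstimulated and 14292 and 22201 in Control cells, most of it from Vim in the Control cells. Without Vim the sum of the other 6 was 9272 and 11256 in Stimulated, 10175 and 9185 in Unstimulated and 3142 and 3799 in Control cells. Of 5 leukocyte markers on the array, 4 were detected on no array and 1 on a single array. The part of these markers in the changes of the Wnt genes called above was not tested. In bulk RNA fewer cells of a kind and less RNA per cell cannot be told apart.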

How the data were processed

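Total RNA from the 6 samples was hybridised to 1 Illumina chip in group order, so the effects of position and of group cannot be told apart. The deposited signals are non-normalized intensities with a detection p-value per probe, per the file headers. The authors' value table is on the log2 scale. Its values equal quantile-normalized log2 signals within 0.00203 and served as an alternative. No source used here names the software. Array medians were 90.2 to 97.4 units, and 14877 to 16176 of 45281 probes were detected. The number of arrays limits the precision.

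In R 4.3.3, limma 3.58.1 (neqc) corrected background (normexp, offset 16, negative controls estimated through detection p-values), quantile-normalized and took log2. Probes with 1 gene symbol and a detection p-value below 0.01 on at least 2 arrays were kept, and the probe with the highest mean stood for its gene, leaving 8909 genes. One mean per group was fitted to 6 arrays (3 residual and 6.00 prior degrees of freedom), with empirical Bayes and Benjamini-Hochberg adjustment over all 8909 genes and a threshold of 0.05. Values are log2 fold changes ± SE. Genes named beyond the 10 were the called genes of largest change, up to 3 per list and comparison, with Myc, Ccnd1, Sox9, Cd44, Lgr4, Znrf3 and Rnf43 always. Hopx was added after its values were seen. Among the cell type markers, Col1a1, Col1a2, Vim and some undetected genes were named outside this rule. The genes and lists were chosen with earlier results of these data known. Each fit was tested on simulated data, and background, normalization, filter, probe, value source, replicate block and left-out arrays were varied.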

Additional observations from a re-analysis of the deposited data

How the results depend on the processing

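The 4 tested genes of the 10 were refitted under 16 alternatives in each of the 3 comparisons, 192 values in all. Only Tcf7l2 in Unstimulated over Control cells without Control replicate 2 passed the threshold (0.65, adjusted p = 0.0406), and 19 values had the other sign, among them Ctnnb1 in Stimulated over Control cells with median scaling (-0.19). The count of genes called between Stimulated and Unstimulated cells, 7, was 44 without background correction, 44 with the deposited log2 values, 36 with an offset of 50, 17 with detection required on all 6 arrays and 15 with median scaling, and 4 to 8 when each array was left out. Of those calls 68.2%, 68.2%, 69.4%, 88.2% and 53.3% were higher, against 100% of the 7. Median scaling moved the median of all genes to -0.13 in this comparison and to -0.11 in Stimulated over Control cells, where 42.6% of calls were higher against 54.7%. For Unstimulated against Control cells the count was 2746, 4216 when every detected probe was tested on its own and 1366 to 2831 when each array was left out. For Stimulated against Control cells it was 2589, 4021 and 1554 to 2324. With the replicate number as a block the counts were 7, 2596 and 2466. Deviations of same-numbered samples from their group means had correlations of -0.00881, -0.04 and -0.0213 between groups. With 2 samples a group, these cannot settle whether same-numbered samples were handled together. The block changed no call of the 4 tested genes, while Bcl9l in Unstimulated over Control cells (adjusted p = 0.0597) and Csnk1e in Stimulated over Control cells (adjusted p = 0.0622) lost theirs. Of the called wider genes named above, 3 of 13 and 5 of 11 kept their call under every alternative in the 2 comparisons with Control cells. Second probes of a gene, such as that of Tle2, were not counted on their own here. Signals near the detection limit bound what can be read of Axin2, Lef1, Nkd1, Lgr5, Ascl2 and Sfrp1.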
